A study of Mus musculus with 48 samples.

Results

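The response of the m6A epitranscriptome to a training session was examined in the hippocampus of 8-month-old HdhQ7/Q111 knock-in (KI) mice, a model of Huntington's disease in which 1 allele of the mouse huntingtin gene carries an expanded CAG repeat. The members are 6 of the 24 m6A-immunoprecipitated (m6A-IP) samples of the series, which holds 48 samples in all, input libraries included. They are 3 naive KI mice and 3 trained KI mice, selected by the genotype, age and condition in the sample labels. The mice are numbered here 1 to 3 within each group in the order of the animal numbers in the labels, and values are given in that order. Per the methods the mice were male, and training was the exploration of a pair of identical objects for 10 min in a spatial task, with the hippocampus taken 30 min later. The naive mice had no training session, and whether they were handled or habituated to the arena is not stated in the sources used here. All 6 mice carried the mutant allele, so that the comparison describes training within the mutant genotype and not the effect of the mutation. Wild-type (WT) mice of 8 months and KI mice of 5 months, each again with 3 naive and 3 trained animals, were used to see where the 8-month KI mice differed.

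N6-methyladenosine (m6A) is an internal modification of mRNA. It is deposited by a writer complex built around METTL3 and METTL14, removed by FTO and ALKBH5, and read by YTH-domain proteins that affect the splicing, translation and decay of the marked mRNA. Immediate-early genes such as Fos, Arc and Egr1 are transcribed within minutes of neuronal activity, and their mRNAs are well-known carriers of the mark in the brain. In MeRIP-seq, fragmented mRNA is pulled down with an antibody to m6A, and a peak is a stretch where the immunoprecipitate is enriched over the input. For each animal the files give peaks with a fold enrichment (IP over input), and for each comparison a table of peaks with the authors' mean level per group (log2 of normalised IP reads). The mean level rises with the amount of an mRNA as well as with its methylation, which cannot be told apart from it here because the input libraries are not analysed here. In whole hippocampus, fewer cells of a type and less RNA per cell cannot be told apart either.

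Peaks of all 24 animals were merged into regions, and a region called in 3 of 3 naive and 0 of 3 trained mice is named lost, and the opposite gained. The terms describe peak calls only. The sequences below stand in lost and gained regions with large differences in mean level. Each is 29 bases of the transcribed strand of the mm9 genome (NCBI build 37), and capitals mark the GGAC core of the m6A motif nearest the peak summit or, where the region holds no GGAC, the nearest match to DRACH (A, G or T, then A or G, then AC, then A, C or T). The first 3 were called in naive animals only among the 6, namely in the coding sequence of D930015E06Rik (chr3:83723471-83723499, minus strand), the coding sequence of Rnf145 (chr11:44362365-44362393, plus) and an intron of 2610528E23Rik (chr16:57600116-57600144, minus). The other 4 were called in trained animals only, in introns of Cdh19 (chr1:112841000-112841028, minus), Ttc8 (chr12:100188283-100188311, plus), Vgll4 (chr6:114848821-114848849, minus) and Ccdc46 (chr11:108562955-108562983, plus). The marked letters lay 67, 1 and 83 bp from the summit in the first 3, and 65, 250, 27 and 27 bp from it in the other 4.
D930015E06Rik: caggagtgaagtGGACagctttgagcctg
Rnf145: tcgttcctctggAGACCatcgtcatcatc
2610528E23Rik: ggtgcccaggcaTAACCacttttccccat
Cdh19: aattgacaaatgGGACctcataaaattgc
Ttc8: gcaagaatatacAAACCatcacactgtct
Vgll4: accatgaggaggGGACctgactagcaaaa
Ccdc46: agagatcacaaaGGACaacatctctggag

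Fewer protein-coding genes had a peak in trained than in naive mice, while the sequence under peaks was of similar length. In the naive mice 51735, 37948 and 57293 peaks were called, and in the trained mice 32461, 38193 and 30550. The groups overlapped, since trained mouse 2 had more peaks than naive mouse 2, and the means of 48992 ± 9960 and 33735 ± 3978 peaks (SD, n = 3) gave a two-sided exact permutation p of 0.2. The bases under peaks came to 18.1 ± 2.24 Mb in naive and 17.5 ± 3.89 Mb in trained mice (SD, n = 3; exact permutation p = 0.9). Median peak lengths were 172, 326 and 197 bp in naive and 440, 202 and 446 bp in trained mice (exact permutation p = 0.2), so that trained mice 1 and 3 had longer peaks than any naive mouse and trained mouse 2 did not. Protein-coding genes with at least 1 peak numbered 11758, 11151 and 12229 in naive and 10881, 10807 and 10545 in trained mice. All 3 trained animals had fewer such genes than any naive animal, with a difference of -968 genes, and the exact permutation p of 0.1 is the smallest that 3 against 3 animals can give.

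**Figure D1:**
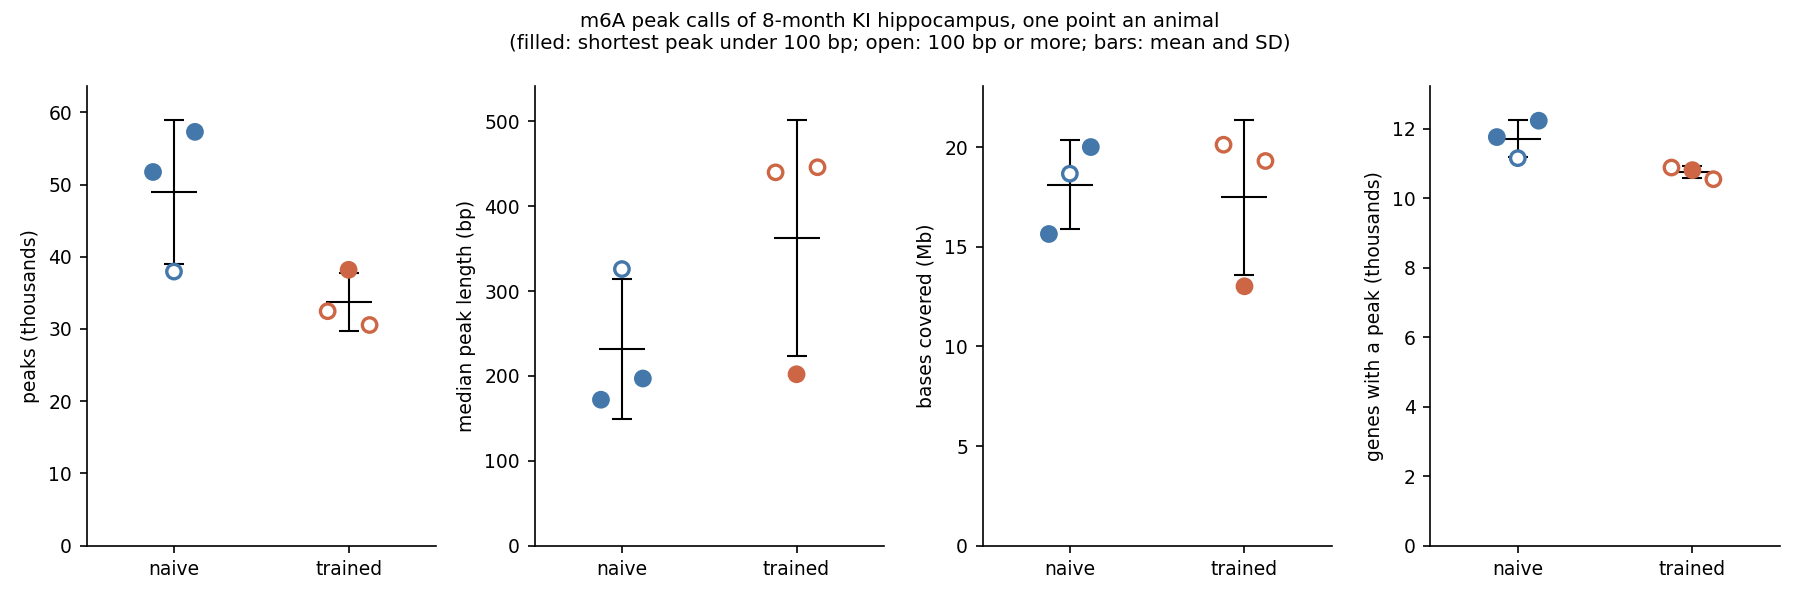
Peaks (in units of 1000), median peak length (bp), bases covered (Mb) and protein-coding genes with a peak (in units of 1000) in the 6 KI mice of 8 months, 1 point an animal, with the mean and SD. The bases covered overlapped between groups, while the 3 trained animals all had fewer genes with a peak than the 3 naive animals.

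The libraries were of different kinds in peak length. The shortest peak a caller returns follows its estimate of the fragment length, and it was 48, 148 and 69 bp in naive and 215, 64 and 227 bp in trained mice. Among the libraries with a shortest peak under 100 bp, naive mice 1 and 3 had on average 54514 peaks and trained mouse 2 had 38193, a ratio of 0.701. Among those of 100 bp or more, naive mouse 2 had 37948 and trained mice 1 and 3 had 31506 on average, a ratio of 0.830. This grouping was chosen after seeing the data, and the part of library type in the results was not tested beyond such values. The files hold no read counts. The methods give 1 approximate depth for all libraries and none per animal, so that the number of peaks is the only measure of yield per animal used here.

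Far more regions lost than gained a call with training. Of 64419 regions called in at least 1 of the 6 animals, 970 were lost (1.51%) and 26 gained (0.0404%), while 19060 were called in all 6. Of the 39549 regions called in at least 2 naive animals, 66.2% were also called in at least 2 trained animals, and of the 27570 called in at least 2 trained animals 95.0% were also called in at least 2 naive animals. The trained calls thus lay almost wholly inside the naive ones. The count of lost regions went up to 1475 when naive mouse 3 was left out and to 4412 when naive mouse 2 was left out, and the count of gained regions to between 44 and 180 over the 6 omissions, with 180 without trained mouse 2.

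Lost regions no longer outnumbered gained ones when each animal contributed the same number of peaks. With the 30550 best peaks of each animal by the caller's p-value, 226 regions were lost and 258 gained. The terms here refer to these best peaks only, and the other group can still hold a weaker peak. Of the 970 lost regions 156 (16.1%) were lost in this setting too, and of the 26 gained regions 13 were gained. The rest of the 226 and of the 258 regions had a peak in the other group when all peaks were used. In WT mice of 8 months the counts were 97 lost and 303 gained with all peaks, and 193 and 151 with 29783 peaks an animal. In KI mice of 5 months they were 206 and 168, and 197 and 203 with 32076 peaks an animal. An equal number of peaks in each animal itself draws both counts together, so that their balance in the 3 comparisons is not a separate result. In WT mice the excess changed sides, and in KI mice of 5 months the counts were near each other with all peaks too. Whether the counts differ between the comparisons was not tested.

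**Figure D2:**
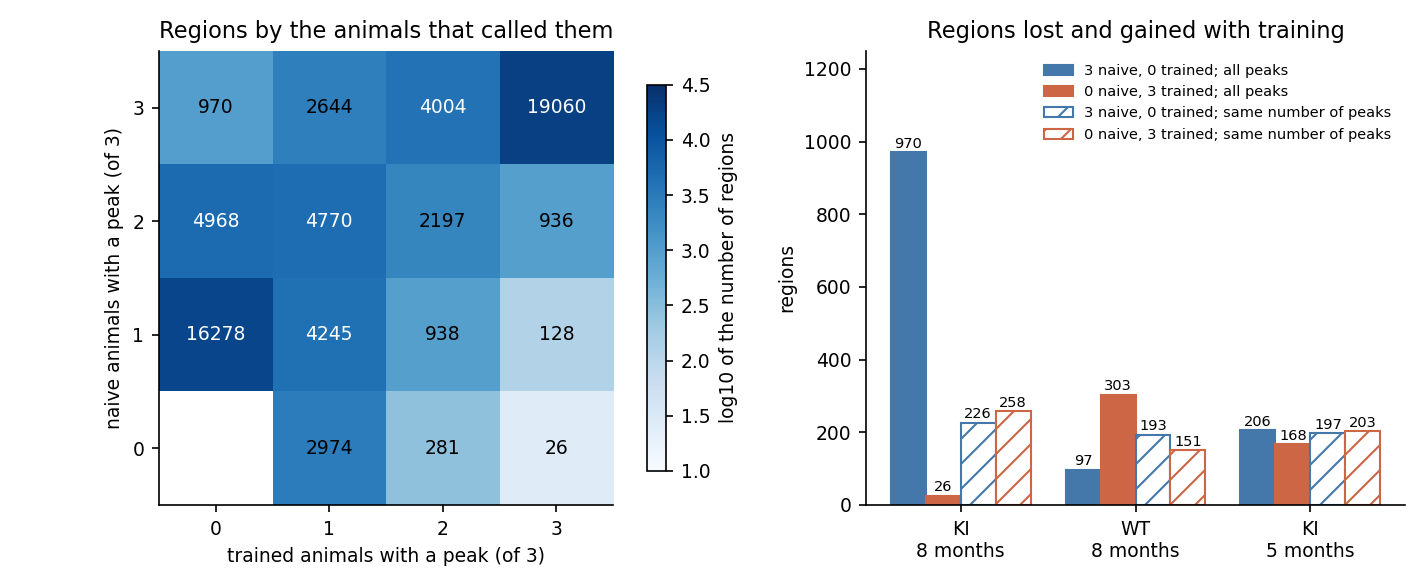
Left, the number of regions by how many of the 3 naive and of the 3 trained KI mice of 8 months called them (colour, log10). Right, regions called in all mice of one group and none of the other, with all peaks (filled) and with equal numbers of the best peaks in each animal (hatched), in 3 training comparisons. The 970 lost and 26 gained regions of 8-month KI mice became 226 and 258 with 30550 peaks an animal.

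Lost regions, like gained ones, were shorter and more weakly called than regions called in all 6 animals. The median length of lost regions was 340 bp, against 484.5 bp for gained regions and 880 bp for regions called in all 6 animals. The median of the highest -log10 q among the 6 animals was 8.12 in lost, 8.06 in gained and 27.0 in all-animal regions, and the median of the highest fold enrichment was 5.49, 5.79 and 7.93. Part of this contrast is set by the definitions. The highest value is taken over 3 animals in lost and gained regions and over 6 in the others, and peaks of more animals can merge into a longer region. Of the 799 lost regions in protein-coding genes, 662 lay in a gene with another region that all 6 animals called, so that most of the genes concerned kept a peak. The 760 genes with a lost region were 5.82% of the 13049 genes with any region, and 21 genes (0.161%) had a gained one. Of the 760 genes, 706 had 1 lost region and 47 had 2. Srrm4, a neuronal splicing regulator, Ptprd, a receptor phosphatase that organises synapses, Kcnj6, which encodes a potassium channel opened by G proteins, and the nuclear receptor gene Rora were among the 7 genes with 3 or more. A further one of these, Gm20388 with 9 lost regions, is a read-through model that overlaps other genes.

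The lost regions were called in many animals of other conditions. In the 18 other animals between 110 and 493 of the 970 regions had a peak. The mean was 332 ± 111 in naive and 390 ± 119 in trained WT mice of 8 months, and 339 ± 60.4 in naive and 332 ± 54.2 in trained KI mice of 5 months (SD, n = 3 each). Over the 18 animals the number called went with the animal's number of peaks (Pearson r = 0.970, Spearman rho = 0.963, permutation p = 2e-05 for both, the smallest the resamples can give; adjusted p = 4e-05 over 4 relations). Without the 2 animals farthest from the median number of peaks r was 0.952. An animal with more peaks can be expected to call more of any set of regions, and no other set was compared. With the shortest peak the relation was weaker, at r = -0.56 (permutation p = 0.015, adjusted p = 0.02) and rho = -0.51 (permutation p = 0.033, adjusted p = 0.033), and r = -0.53 without the 2 farthest animals. No batch is named in the labels, and all libraries carry the mark of 1 sequencing lane, so that no within-batch value could be given.

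**Figure D3:**
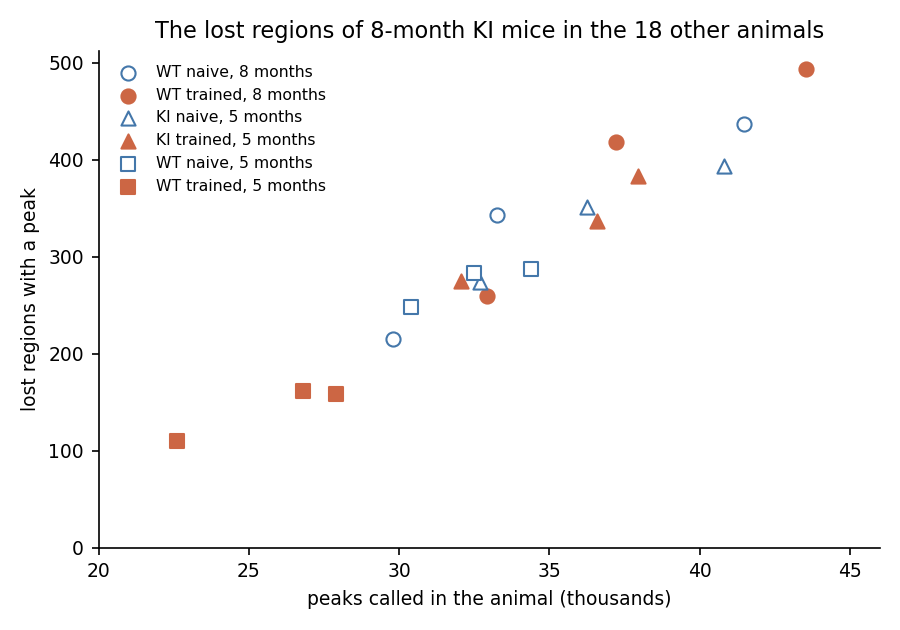
Number of the 970 regions lost with training in 8-month KI mice that had a peak in each of the 18 other animals, against the number of peaks called in that animal (in units of 1000), by genotype, age and training. Animals with more peaks called more of these regions, from 110 to 493, whether naive or trained.

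The lost regions with the largest difference in the authors' mean level included some in genes of the synapse. D930015E06Rik had fold enrichments of 9.18, 5.19 and 8.86 in the 3 naive mice, and its mean level was 6.31 in naive against 0.00 in trained mice, the lowest value listed for trained mice in the table, so that no fold is given. Cacng2, which encodes the AMPA receptor auxiliary subunit stargazin, had enrichments of 3.78, 4.03 and 5.33 in an intron and mean levels of 5.23 and 0.00. For both, the call in each naive animal and in no trained one follows from the definition of a lost region.

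Klc4, a light chain of the transport motor kinesin, had enrichments between 2.44 and 7.75 and mean levels of 6.13 and 0.73. Tanc1, a scaffold of the postsynaptic density, had enrichments between 2.7 and 4.57 and mean levels of 6.19 and 2.00. Mlxipl, a transcription factor that responds to glucose, had 4.61, 5.77 and 5.33 and mean levels of 5.77 and 1.58. Further ones were Rnf145 with mean levels of 5.00 and 0.00, 2610528E23Rik with 6.15 and 1.41, 2610024G14Rik with 4.55 and 0.00 and Arhgef10l with 4.27 and 0.00, out of 319 eligible regions. Of the regions named here, that in D930015E06Rik was also lost with equal numbers of peaks and the others were not. The regions in Klc4 and Arhgef10l had a peak in 0 of the 18 other animals, those in Rnf145 and Tanc1 in 1 each, and that in Cacng2 in 7.

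Gained regions were few, and 18 of the 26 were intronic. Cdh19, a cadherin gene, had fold enrichments of 5.81, 5.63 and 3.72 in the trained mice and mean levels of 3.92 in naive and 6.73 in trained mice. Its region was called unevenly in the other conditions too, with a peak in 3 of 3 trained and 1 of 3 naive WT mice of 8 months and in 3 of 3 trained and 0 of 3 naive KI mice of 5 months, but in 0 of 3 trained and 1 of 3 naive WT mice of 5 months. Ttc8, a subunit of the BBSome that sorts proteins to cilia, had mean levels of 4.74 and 6.91, and Vgll4, a cofactor of TEAD transcription factors, 3.61 and 5.68.

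The other gained regions named by the rule had smaller differences. Mean levels were 5.31 and 6.96 in Ccdc46, 4.30 and 5.73 in Ccdc122, 5.49 and 6.80 in Zim1, 6.46 and 7.70 in 2410089E03Rik, 6.82 and 7.82 in Wdr8, and 5.85 and 6.78 in 1300010F03Rik, from 14 eligible regions. They ranged from rare to common elsewhere, with a peak in 14 of the 18 other animals for Ccdc46, 11 each for Zim1 and 2410089E03Rik, 6 for Ccdc122, 5 for 1300010F03Rik and 2 for Wdr8. With equal numbers of peaks the regions of Cdh19, Ccdc46, Ccdc122 and Wdr8 were gained again. The single gained regions in coding sequence and in a 3′UTR lay in Nlrx1 and in Snap91, names chosen after their values were seen.

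**Figure D4:**
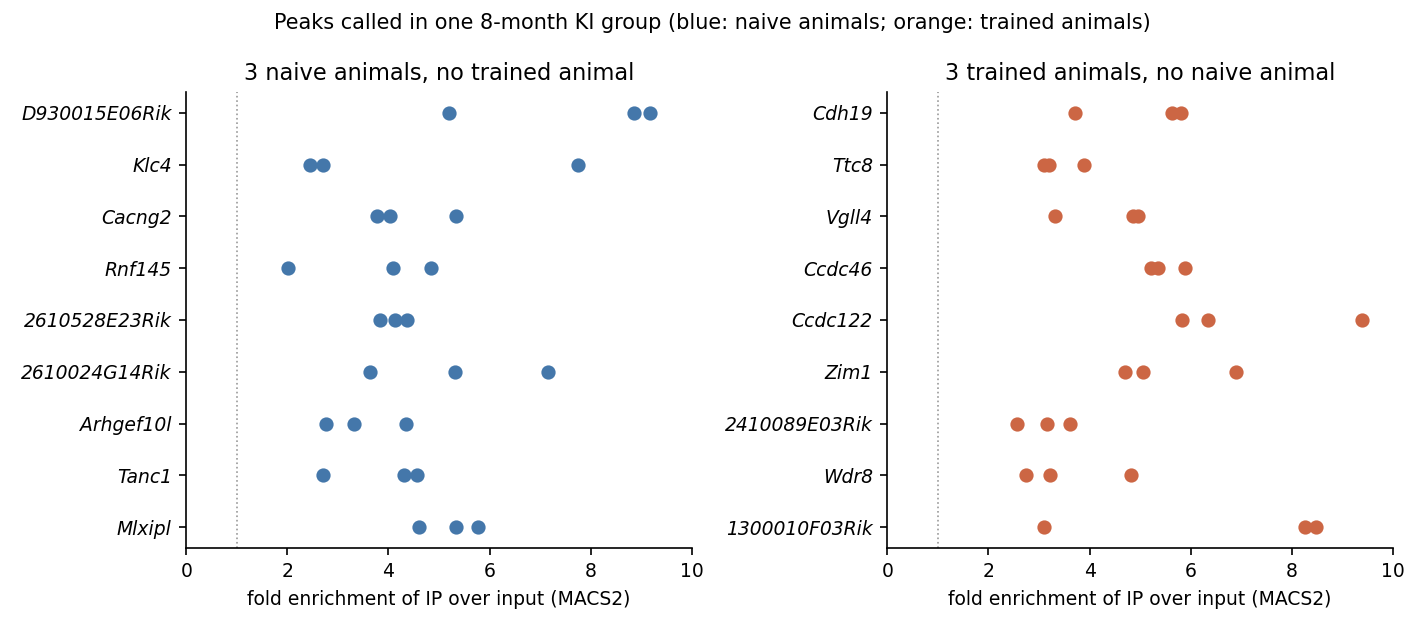
Fold enrichment of IP over input in each animal for 9 lost (left, naive mice) and 9 gained regions (right, trained mice) with large differences in the authors' mean level; the dotted line marks 1, no enrichment. By the definition of lost and gained, no peak was called in the other group for any of the 18 regions. The enrichments lay between 2.01 in Rnf145 and 9.39 in Ccdc122.

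Genes of the synapse often held a lost region, and they had many regions each. A lost region was found in 13 of 53 synaptic adhesion genes (24.5%), 10 of 40 genes of postsynaptic scaffolds and signalling (25.0%), 9 of 42 presynaptic genes (21.4%) and 7 of 42 genes of voltage-gated channels (16.7%), against 5.82% of all genes. In the same order these genes had 17.7, 15.2, 12.4 and 12.7 regions each on average. Counted by region, 1.81% of the 938 adhesion regions, 1.97% of the 608 postsynaptic, 1.92% of the 521 presynaptic and 8 of the 534 channel regions were lost, next to 1.51% of all regions. No list held a gained region. With equal numbers of peaks, 5 adhesion genes had a lost and 6 a gained region, with 2 and 1 among postsynaptic, 2 and 3 among presynaptic and 1 and 5 among channel genes, and the background was 1.41% of genes lost and 1.69% gained.

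Among the adhesion genes the lost regions named by the rule were intronic. Cdh9, a cadherin of hippocampal mossy fibre synapses, had mean levels of 6.30 in naive and 2.73 in trained mice, Csmd3 6.42 and 3.11, Ntm 5.27 and 2.22, and Cntnap5b, of the contactin-associated family, 6.31 and 3.36. Of presynaptic genes, Nrxn3 went from 6.42 to 4.97, Unc13b, a vesicle priming factor, from 6.34 to 5.24 and Unc13a from 9.04 to 8.26. Of postsynaptic genes, Lrrc4c went from 6.08 to 4.93, Nsg2 from 7.11 to 6.45 and Dlgap1, a binding partner of PSD-95, from 7.21 to 6.63. Of channels, the levels were 6.96 and 5.84 at Cacna1h (T-type calcium channel), 6.41 and 5.63 in Cacna2d1 and 7.13 and 6.42 in Kcnh7. The region at Cacna1h overlaps that gene, but its strongest summit lies outside protein-coding genes. A lost call did not always come with a lower level: the mean was 11.23 in naive and 11.49 in trained mice at Map2k2, a kinase of the ERK cascade, and 9.32 and 9.53 at Creb1, the transcription factor of activity-dependent genes.

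Lost regions in receptor, splicing and signalling genes are set here against 5.82% of all genes and 1.51% of all regions. Of glutamate receptor genes 2 of 24 had a lost region (8.33%, and 0.499% by region), Grin1, the obligate NMDA receptor subunit, with mean levels of 9.16 and 8.51, and Grid1. Of GABA synapse genes 3 of 21 had one (14.3%, and 2.42% by region), namely Gabra3, Gabbr1 and Gphn. Of splicing factors 7 of 50 had one (14.0%), including Srrm4 with 9.32 and 8.88 and Elavl3 with 7.55 and 6.81, and by region the share was 3.13%. Of 45 genes of CREB and TrkB signalling 4 had one (8.89%, and 1.83% by region), which besides Creb1 and Map2k2 were Crebbp and Rps6ka5. With equal numbers of best peaks Gria2, Grik3 and Grin2b each had a region gained among those peaks, and Grin1 kept its loss. These were 12.5% and 4.17% of the 24 glutamate receptor genes, next to 1.69% and 1.41% of all genes. The glutamate receptor genes had 16.7 regions each on average, against 4.94 in all genes.

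In the m6A machinery the share of genes with a lost region was near that of all genes. Of 25 genes with a region 1 had a lost one (4.0%, next to 5.82% of all genes), namely Fxr2, an RNA-binding protein of the fragile X family. Mettl14, the partner of METTL3 in the writer complex, had a coding region (chr3:123071913-123072781) with enrichments of 1.97 and 3.50 in naive mice 2 and 3 and of 4.39, 3.56 and 2.53 in the 3 trained mice, and it counted as gained only with equal numbers of peaks. Fto, the eraser, had 1 region called in all 6, at 4.84, 2.78 and 3.27 in naive and 2.48, 3.89 and 3.21 in trained mice. These overlapped (log2 difference -0.16 ± 0.32 SE, limma adjusted p = 0.999). Among peaks listed by the authors, 6 of the machinery were higher and 11 lower after training, 7 of the latter in Prrc2a, a reader protein. The higher peaks lay in 4 genes and the lower ones in 3. Over all listed peaks 3271 were higher and 3950 lower.

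Immediate-early genes stood at higher mean levels after training in almost every listed peak. The authors' table for this comparison lists 7221 peaks, which passed the authors' own p limit, and in 45.3% of them the trained mean was the higher one. The line of column names in this table is that of another comparison, so that the order of the groups was taken from the description of the series; peaks far lower in the column read as trained were mostly called in more naive animals, as given below. Of 64 peaks in immediate-early genes 62 were higher and 2 lower, and their median difference was 0.57 on the log2 scale, against -0.21 over all listed peaks. Since the table was selected by a test on these samples, and the genes were grouped with earlier results known, these counts describe the list and are not a test of it. In WT mice of 8 months 50 of 56 listed peaks in these genes were higher (median 0.51, against -0.09 over all listed peaks). In KI mice of 5 months 46 of 50 were higher (median 0.46, against 0.17 over all listed peaks). The input libraries of the same animals are not analysed here, so that more mRNA and more m6A on it cannot be told apart.

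The largest differences were in transcription factors and synaptic effectors. Egr2, a zinc finger transcription factor, went from a mean level of 9.66 in naive to 12.17 in trained mice, beside 9.84 and 11.71 in WT mice of 8 months and 9.55 and 11.45 in KI mice of 5 months. A peak in Homer1 that the annotation places in a 3′UTR, in a gene whose short activity-induced form loosens postsynaptic scaffolds, went from 8.61 to 10.75 (8.85 to 10.71 and 9.15 to 10.64 in the other comparisons). Fos went from 9.47 to 11.18 (9.21 to 10.97 and 9.30 to 10.26) and Fosb from 7.92 to 9.49 (8.05 to 9.16 and 7.19 to 8.59). In these genes the difference in 8-month KI mice was above that in 5-month KI mice, and above that in WT mice except in Fos. The genes are listed first for their large differences in 8-month KI mice, which by itself favours a larger value there. Whether the effects differ between groups could not be tested on means without replicates.

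Arc, which encodes a cytoskeletal protein that controls AMPA receptor removal, went from 14.89 to 15.94, and Npas4, a transcription factor that organises inhibitory synapses, from 11.32 to 12.25. Egr1 went from 15.10 to 16.02, Junb from 14.06 to 14.87 and Nr4a1, an orphan nuclear receptor, from 12.31 to 13.32 in its coding sequence. Bdnf, the neurotrophin, differed least of the genes named here, from 14.50 to 14.64. The 2 lower peaks both lay in Nptx2, a secreted pentraxin that clusters AMPA receptors, with differences of -0.63 and -0.61. Of 41 immediate-early genes with a region 2 had a lost one (4.88%, near the 5.82% of all genes), namely Bdnf, in a 5′UTR region (chr2:109533731-109534364) with enrichments of 4.16, 3.52 and 3.65 in naive mice, and Plk2.

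**Figure D5:**
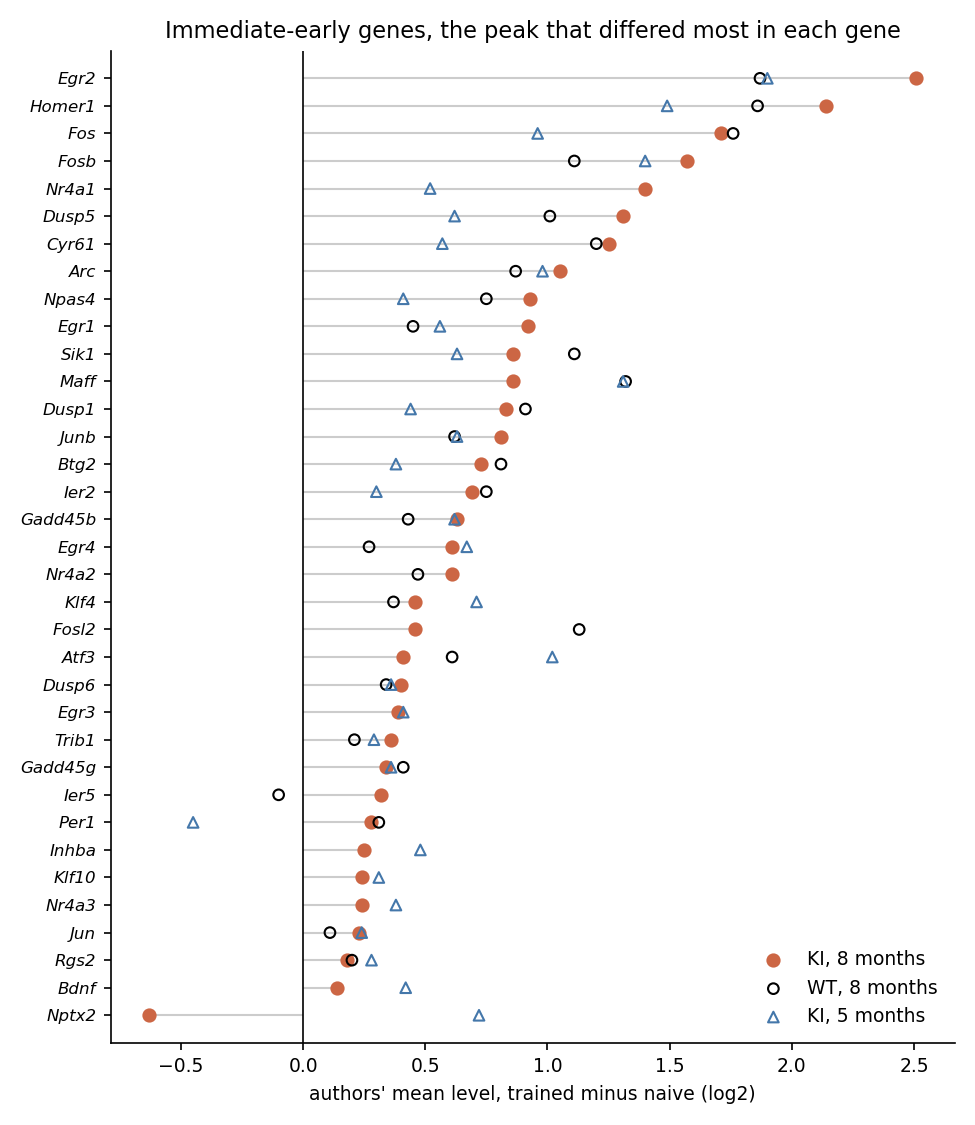
Difference in the authors' mean level (log2, trained minus naive) for the peak that differed most in each immediate-early gene of the 8-month KI table (filled), with the same region in WT mice of 8 months (circles) and KI mice of 5 months (triangles) where those tables list it. In 8-month KI mice all genes but Nptx2 lay above 0, with Egr2 farthest at 2.51.

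The fold enrichment over input mostly did not follow the mean level in these genes. In its region at chr15:74501028-74503025, Arc had enrichments of 4.72, 4.13 and 3.35 in naive and of 2.90, 2.05 and 2.98 in trained mice. These did not overlap, with a log2 difference of -0.62 ± 0.31 (SE, limma adjusted p = 0.995). Another Arc region called in all 6 animals did overlap, at 4.46, 3.39 and 2.86 against 2.68, 3.56 and 3.34. Junb had 4.83, 4.54 and 6.32 against 3.05, 4.08 and 3.22, also without overlap, at -0.59 ± 0.30 (limma adjusted p = 0.995). Of all 19060 regions called in all 6 animals, 5.02% had trained below naive without overlap in the same way. Fos had 5.91, 6.20 and 2.59 against 2.85, 4.37 and 3.05, and Homer1 had 8.07, 6.06 and 3.17 against 6.14, 4.86 and 5.41 in the peak named above, both with overlapping groups. The main coding region of Npas4 had 10.1, 8.36 and 8.34 against 8.44, 8.54 and 5.37. A 5′UTR region of Fosb went the other way, with 7.02, 7.01 and 7.09 against 6.73, 12.7 and 8.67 (log2 difference 0.37 ± 0.31, SE). Over 73 regions of immediate-early genes called in all 6 animals none passed the test in either direction. Their median log2 difference was -0.16, with 53 below 0 and 20 above, next to a median of 0.00 and 49.6% below 0 for all regions.

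Beyond the immediate-early genes, large differences in mean level were more often downward than upward. A difference of more than 1 on the log2 scale was listed for 170 higher peaks (2.35%) and 384 lower ones (5.32%), with a median difference of -0.21 over the table. Of the 384 lower peaks, 322 were called in more naive than trained animals, 59 in equal numbers and 3 in more trained animals, and 151 lay in lost regions. Of the 170 higher peaks, 51 were called in more trained animals, 93 in equal numbers and 26 in more naive animals. Both sets were rich in low levels and introns: the median mean level was 5.92 in the lower and 6.32 in the higher set against 9.25 in peaks within 1, and 50.3% and 47.6% lay in introns against 27.7%.

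Some of the widest differences rested on a level at the bottom of the scale. In naive mice 21 peaks shared the lowest level of -0.28 and in trained mice 28 shared 0.00. Among them Fxr1 was listed at -0.28 in naive and 6.25 in trained mice with a peak called in 2 animals of each group, and Shank1, a postsynaptic scaffold, at 5.28 and 0.00 with a peak called in all 6. Where calls and means disagree in this way, the mean level is given here as listed and nothing is read from it.

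Few regions differed by more than 1 in several comparisons. Of the 170 regions with a higher level in 8-month KI mice, 24 were also higher in WT mice of the same age (14.1% of the 170 and 5.12% of the 469 in WT) and 4 were lower there. Of the 384 lower ones, 4 were lower and 13 higher in WT mice. In KI mice of 5 months 9 of the 170 were higher and 6 lower, and 17 of the 384 were lower and 5 higher. Only 6 regions were higher in all 3 comparisons, in Egr2, Homer1, Fosb, Apold1, Cdh19 and E030010A14Rik, and 0 were lower in all 3. Egr2, Homer1 and Fosb are activity-regulated, and Apold1 is an early response gene of endothelial cells.

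Listed peaks of synaptic gene groups were more often lower than higher in trained 8-month KI mice. Of listed peaks, 49 were higher and 73 lower in adhesion genes, 27 and 52 in postsynaptic genes, 24 and 37 in presynaptic genes, 24 and 48 in channel genes and 18 and 35 in splicing factors, next to 3271 higher and 3950 lower over the table. In WT mice of 8 months the same lists had 106 higher and 35 lower peaks in adhesion genes, 46 and 62 in postsynaptic genes, 43 and 32 in presynaptic genes, 43 and 53 in channel genes and 41 and 17 in splicing factors, over a table of 4008 higher and 4075 lower peaks. In KI mice of 5 months all 5 lists had more lower than higher peaks as well, with 43 higher and 94 lower in adhesion genes, 36 and 76 in postsynaptic genes, 19 and 54 in presynaptic genes, 32 and 59 in channel genes and 8 and 63 in splicing factors, over a table of 3949 higher and 3881 lower peaks. In 8-month KI mice glutamate receptor genes had 22 higher and 25 lower, GABA synapse genes 10 and 8, and genes of CREB and TrkB signalling 21 and 13.

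Markers of oligodendrocytes moved with the groups as well. All 25 listed peaks in these markers, which lay in 8 genes, were lower in the trained 8-month KI mice. Over all listed peaks 3271 were higher and 3950 lower. Among the 25 were Mbp from 16.06 to 15.36, Cnp from 11.34 to 10.66, Mobp from 12.50 to 11.95 in its lost region and Sox10 from 7.91 to 6.58. In WT mice of 8 months 5 were higher and 0 lower, next to 4008 and 4075 over all listed peaks. In KI mice of 5 months 8 were higher and 3 lower, next to 3949 and 3881. Lost regions were found in 3 of 13 of these genes, Mobp, Mbp and Gm98 (23.1%, next to 5.82% of all genes). By region the share was 4.41%, next to 1.51% of all regions. By enrichment over input the 24 regions of these markers had a median log2 difference of 0.09 and none passed the test. Of the 15 markers, peaks were called in 12, 10 and 12 genes in naive and 10, 12 and 11 in trained mice. Other marker lists had few listed peaks, with 6 higher and 14 lower for the dentate gyrus, 0 and 3 for CA3, 5 and 2 for astrocytes, 2 and 3 for microglia, 4 and 9 for oligodendrocyte precursors, 2 and 2 for endothelium, 7 and 9 for interneurons, 1 and 1 for CA1, 7 and 6 for the striatum and 0 and 3 for the choroid plexus. Genes of oxidative phosphorylation had 3 higher and 0 lower peaks. The part of cell make-up in the training response was not tested.

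Markers of the labelled tissue were present. Peaks were called in all 7 CA1 and pyramidal genes that had a region in every one of the 6 animals, and in 10, 10 and 10 of the 11 dentate gyrus genes in naive and 11, 10 and 10 in trained mice. Choroid plexus markers had a peak in 4, 3 and 3 genes in naive and 3, 3 and 3 in trained mice.

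No single region passed the test for a change in enrichment. In the 19060 regions called in all 6 animals, log2 fold enrichment, centred on each animal's median, was compared with limma, and 0 passed an adjusted p of 0.05 with a rise and 0 with a fall (0.0% in each direction). At an unadjusted p under 0.05 there were 920 regions (514 higher, 406 lower), the smallest adjusted p was 0.995 and the median standard error was 0.32. A p that misses the threshold does not show that enrichment was the same in both groups. The groups did not overlap in 916 regions with trained above naive (4.81%) and in 956 below (5.02%). In trained KI mice of 8 months against WT mice of that age 0 of 16557 regions passed the test of a difference in training effect, with 860 at an unadjusted p under 0.05, and against KI mice of 5 months 0 of 16270, with 693.

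The regions with the smallest p are named for their values and were not called. Chd8, a chromatin remodeller, had enrichments of 2.58, 4.18 and 2.56 in naive and of 8.51, 8.86 and 7.94 in trained mice in a coding region (chr14:52856448-52857597), a log2 difference of 1.49 ± 0.31 (SE; limma adjusted p = 0.995). When all 24 animals shared 1 estimate of the spread, only 2 of 12187 regions passed. They were this region (1.48 ± 0.26, limma adjusted p = 0.0486) and 1 outside protein-coding genes (chr3:18525284-18526267). Syt9, a calcium sensor of vesicle release, had between 2.41 and 5.15 in naive and between 7.39 and 10.7 in trained mice. Klhl13, an adaptor of a ubiquitin ligase, had a log2 difference of 1.41, and the further ones were AA986860, Mpst, Ccdc141, Rb1cc1 and Ttl, between 1.11 and 1.39. In each of these 8 regions all trained animals lay above all naive ones. The choice by smallest p favours this, and 4.81% of all 19060 regions separated in the same way.

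The 8 regions with the smallest p and a lower trained mean had log2 differences between -1.47 and -1.14 and were not called either. Thumpd3, a tRNA methyltransferase, had 9.03, 10.3 and 11.01 in naive and 4.03, 3.67 and 3.55 in trained mice (log2 difference -1.42 ± 0.28, SE; limma adjusted p = 0.995). Ptprf, a receptor phosphatase of the synapse, had between 5.72 and 8.65 in naive and between 1.88 and 3.52 in trained mice (-1.47 ± 0.33). Ephb3, an ephrin receptor, had 8.17, 10.5 and 10.5 against 3.64, 4.21 and 3.89, and the serotonin receptor gene Htr5a 12.1, 9.82 and 14.4 against 5.72, 6.80 and 3.82. Tnrc6b, Gpn2, Tmem168 and Btbd9 had differences between -1.27 and -1.14. In these 8 regions, too, the groups did not overlap. The choice by smallest p favours this as well, and 5.02% of all 19060 regions had trained below naive without overlap.

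Htt, the gene that carries the mutation, had 2 regions called in all 6 animals. Its 3′UTR region (chr5:35251152-35252004) had enrichments of 3.18, 4.00 and 5.89 in naive and 2.64, 3.12 and 2.17 in trained mice. All trained values lay below all naive ones, as in 5.02% of all 19060 regions. The log2 difference was -0.68 ± 0.31 (SE, limma adjusted p = 0.995). An intronic region near the start of the gene (chr5:35104810-35105427) had 7.36, 7.83 and 2.83 against 7.22, 4.37 and 5.50 and a difference of 0.04 ± 0.40 (SE). The 6 remaining Htt regions were called in 1 to 5 of the animals, and none was lost or gained.

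No difference in the place of peaks along the transcript was detectable with 3 animals a group, whose smallest exact permutation p is 0.1. Of summits in genes, 46.1%, 41.0% and 47.8% lay in coding sequence in naive mice and 37.7%, 49.6% and 41.0% in trained mice (means 45.0 ± 3.55% and 42.8 ± 6.17%, SD, n = 3; exact permutation p = 0.7). The 3′UTR held 21.5 ± 1.34% and 23.3 ± 0.897% (exact permutation p = 0.2), the 5′UTR 6.12 ± 0.566% and 6.46 ± 0.656% (exact permutation p = 0.5), and introns 27.4 ± 1.96% and 27.4 ± 6.33% (exact permutation p = 1.0), all SD with n = 3. With 3′UTRs placed first in the order of transcript parts, the 3′UTR share was higher by 2.13 points in trained mice and reached that smallest exact permutation p of 0.1. The lost regions lay elsewhere than the stable ones: 32.7% were intronic and 9.79% in 3′UTRs, against 16.2% and 25.1% of the regions called in all 6 animals and 26.8% and 13.8% of all regions. With equal numbers of peaks, 27.9% of lost and 39.5% of gained regions were intronic.

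The GGAC core was more frequent at stable summits than at those of lost regions. Of 737 lost regions in genes, 36.6%, 35.3% and 34.2% held GGAC within the 100 bp around the summit on the transcribed strand in the 3 naive animals, a mean of 35.4 ± 1.22% (SD, n = 3). In 14527 regions called in all 6 animals the share was 44.7 ± 1.09% (SD, n = 6, between 43.3% and 46.2%), and the highest lost value lay below the lowest of these. Windows of the same length moved by 1000 bp held GGAC in 26.7% and 26.6%. The 20 gained regions with a strand had 41.7 ± 5.77% (SD, n = 3 animals). A match to DRACH, searched on the transcribed strand and overlapping GGAC where that is followed by A, C or T, stood in 80.4% of lost, 70.0% of gained and 87.1% of stable windows. These are shares of letters in a window, and a match is not evidence of a methylated site.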

How the data were processed

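MeRIP-seq libraries of whole hippocampus were grouped by the genotype, age and condition in the labels. Per the submitters' processing notes and the methods, reads were aligned to mm9 with STAR 2.7.3a, repeats were removed, and peaks were called for each animal against its own input with MACS2 2.2.6. The deposited peak lists give each peak's fold enrichment (the ratio to input) and, as made by the authors with MACS2, its p-value and q-value as -log10. The deposited comparison tables were made by the authors with DiffBind 2.8.0 and DESeq2 on peaks reproducible between animals. They hold the authors' mean levels on the log2 scale, without a value per animal, and list only peaks below the authors' p limit. Their fold changes and p-values were not used. No input library was analysed here, and sequencing depth per animal is not given in the files.

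Peaks of the 24 m6A-IP libraries were merged where they overlapped by at least 1 bp. A region's enrichment in an animal is that of its highest peak. Regions called in all 6 animals were compared with limma 3.58.1 in R 4.3.3 on log2 enrichment centred on each animal's median, with Benjamini-Hochberg adjustment at 0.05 over all regions tested; values per animal were compared with two-sided exact permutation tests, and differences between comparisons by permuting the training labels within each (400 arrangements). Transcript parts came from GENCODE vM1 on the same build, in the order coding sequence, 3′UTR, 5′UTR, intron. Nothing in the labels says that any 2 samples of a group came from 1 animal. The fit was tested on simulated data.

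Named regions were the 8 with the smallest p in each direction of the fit, the 10 lost and the 10 gained ones with the largest difference in mean level, up to 4 members of each of 22 gene lists, and a fixed set of genes that includes Htt, Fos, Arc and Fto. A few of the regions this rule names, and their sequences, are not reported here. The members and lists were chosen with earlier results of these data known. Grouping libraries by their shortest peak was chosen after seeing the data. Alternatives were other q limits, overlap rules, normalizations, equal numbers of peaks and each animal left out in turn.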

Additional observations from a re-analysis of the deposited data

Results flagged for a closer look

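The number of protein-coding genes with a peak was flagged because the effect of training differed between genotypes at 8 months. It was -968 genes in KI mice and 236 in WT mice, a difference of -1204 genes, with an exact permutation p of 0.035 over 400 arrangements and an adjusted p of 0.586 over the 20 differences of this kind, so that it does not pass the correction. All 3 trained KI mice had fewer such genes than all 3 naive ones. For the number of peaks itself the same difference was -18323, with an exact permutation p of 0.07. The cause was not tested.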

How the results depend on the processing

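No paired analysis was possible because no animal was measured in both conditions and the numbers in the labels name animals. The counts of lost and gained regions, 970 and 26, depended on each setting that changed how many peaks entered: 284 and 66 when peaks had to cover at least 0.5 of the region, 354 and 91 at a -log10 q of at least 5, 226 and 258 under equal numbers of best peaks, 8678 and 1502 within libraries with a shortest peak under 100 bp and 6292 and 1535 within the others, and 50 gained regions at a -log10 q of at least 3. Leaving out an animal asks fewer animals for a call and gave 1475 to 4412 lost regions (1991, 4412 and 1475 without naive mouse 1, 2 or 3, and 1706, 2356 and 1492 without trained mouse 1, 2 or 3) and 44 to 180 gained ones (66, 44, 96, 68, 180 and 111 in the same order). The difference in bases covered, -0.623 Mb, reversed to 0.205 and 1.09 Mb at the q limits of 3 and 5, to 1.05 Mb within libraries with longer shortest peaks, and ranged from -1.94 to 1.61 Mb with an animal left out (0.327 without naive mouse 3, 1.61 without trained mouse 2). The coding share, lower by 2.21 points (-2.21), came to 2.67 within libraries with a shortest peak under 100 bp and ranged from -5.65 to 0.330 with an animal left out (0.330 without trained mouse 1). There the 5′UTR difference of 0.343 became -0.0730, and the intron difference of 0.0186 became -5.96; with an animal left out the latter ranged from -2.51 to 3.57 (-0.459 and -0.632 without naive mouse 1 or 3, -2.51 and -1.01 without trained mouse 1 or 3). No region was called in the enrichment fit in either direction under any of the alternatives run but the fit over all 24 animals, which called 2 higher. Peaks with a higher mean level numbered 886 beyond 0.5, 43 beyond 2, and 51 if called in more trained animals, against 170, and lower ones 1674 beyond 0.5 and 86 beyond 2, against 384. The difference in the number of peaks, -15257, kept its direction but shrank to -9950 and -4311 at the q limits of 3 and 5 and to -6442 within libraries with longer shortest peaks (-16321 within the others), and lay between -20779 and -11107 with an animal left out. Depth per animal is not given in the files, and 3 animals a group cannot give an exact permutation p below 0.1.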
